A study of Homo sapiens with 6 samples.

Results

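The genes that govern passage through the G1 phase of the cell cycle were examined in the human melanoma cell line A375 after exposure to ozonated olive oil. The 10 genes, taken by symbol from the 28395 genes of the authors' deposited table, were the D-type cyclins CCND1, CCND2 and CCND3, the E-type cyclins CCNE1 and CCNE2, the kinases CDK4 and CDK6, and the CDK inhibitors CDKN1B, CDKN1C and CDKN2B. CDKN1A, the remaining CIP/KIP inhibitor, was not among them and is given only for comparison. The same holds for other INK4 inhibitor genes, such as CDKN2A and CDKN2C. Messenger RNA was sequenced from A375 cells kept for 6 h in medium with either 0.01% olive oil as the control (OLO) or 0.01% ozonated olive oil (OZO). Each group had 3 libraries. All libraries derive from a single cell line grown in serum-containing medium, and untreated cells are not part of the comparison. The study describes the libraries as independent experiments, whereas the labels only number them, so the p-values measure the spread between these libraries, part of which may be technical.

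D-type cyclins are made in response to growth signals and activate CDK4 and CDK6, which begin to phosphorylate the retinoblastoma protein in G1. E-type cyclins then activate CDK2, which completes this phosphorylation and frees E2F factors to switch on genes for DNA replication. INK4 inhibitors such as the CDKN2B product bind CDK4 and CDK6, whereas CIP/KIP inhibitors such as the CDKN1B and CDKN1C products bind the assembled cyclin-CDK complexes. In melanoma, signalling through the MAP kinase pathway is a well known driver of CCND1 transcription.

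The deposited table gives, for each gene, a log2 fold change of OZO over OLO, a mean log2 CPM over all libraries and limma's moderated statistics. Values of single libraries are not analysed here, so how many libraries share a direction, and whether the groups overlap, is not known for any gene. The mean number of reads per library in each group was derived from the mean level and the fold change. It was scaled to 1 geometric mean library size of 18409903 fragments for both groups, so it is not a count of reads. Genes without any read place the scaled library sizes 1.26-fold higher in OLO than in OZO. The size of each library is unknown. A mean of at least 10 reads was held by 13773 genes, referred to here as read genes. The median log2 fold change was −0.01 over read genes and 0.19 over all genes, as each of the 7012 genes without any read carries an offset of 0.33. Of the markers examined, 4 of the 7 melanocyte and melanoma genes were read, SOX10 (1265 reads in OLO, 667 in OZO), MITF (539 and 461), MLANA (28.6 and 46.8) and S100B (60.6 and 42.9), as were all 4 dedifferentiated melanoma genes. The pigment genes PMEL and DCT had a mean under 10 reads, and TYR had no read. Markers of other cell types were also read, namely KRT14 (78.4 and 76.6), COL1A1 (18.4 and 27.0), LUM (83.1 and 92.4) and PECAM1 (22.7 and 16.7). KRT5, KRT1, COL3A1, CDH5, PTPRC and CD3E had a mean under 10 reads. No marker of melanoma, keratinocyte, fibroblast, leukocyte or endothelial cells passed the limma test, nor was any under an unadjusted p of 0.05. The standard errors of SOX10 and AXL, 0.542 and 0.466, exceeded those of 99.2% and 99.9% of genes within 0.5 log2 CPM of their levels. For SOX9 and EGFR, at 0.733 and 0.339, the shares were 96.4% and 97.0%, whereas for MLANA the share was 68.0%. The missing calls thus do not show that these markers were unchanged.

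Among the 10 genes, CCND1 fell at 6 h with OZO, and the other 9 did not pass the test. CCND1 messenger RNA was 2.14-fold lower in OZO than in OLO. The called genes thus made up 1 of the 10, against a background of 7.04% of all genes called in either direction and 3.06% called lower. Of the 7 read members 1 was called, against 13.6% of all read genes in either direction and 5.89% called lower. With a single call, the share of the members called was near the background on both counts. None was called higher, where the background was 7.75% of read genes. The single member with a positive fold change and an unadjusted p under 0.05 was CDKN1C, which had almost no reads. Of the 7 read members, 6 had a negative fold change, and their median log2 fold change was −0.18, beside −0.01 over all read genes. An unadjusted p under 0.05 was held by 3 of the 7, CCND1, CCND3 and CDKN1B, whereas 35.6% of all read genes reached it.

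**Figure D1:**
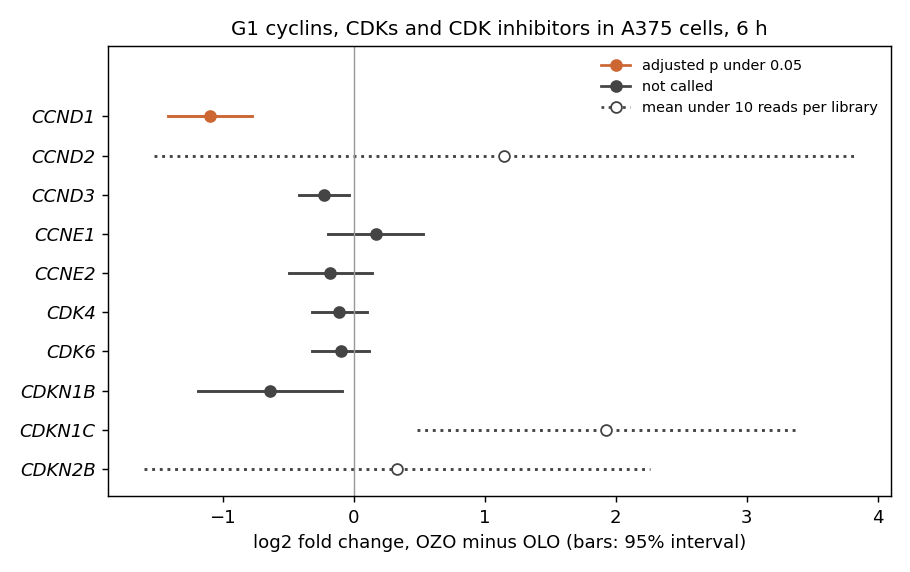
Log2 fold change of OZO over OLO (x axis) for each of the 10 genes (rows), as points with 95% intervals as bars. CCND1, in orange, is the gene with an adjusted p under 0.05, and the open points with dotted bars are the 3 genes averaging under 10 reads per library.

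Cyclin D messenger RNAs are known to be short-lived, and the pentamer ATTTA in the 3′ untranslated region (3′ UTR) is a sequence found in many unstable messenger RNAs. The motif was therefore searched on the sense strand of the 3′ UTR of each canonical transcript in GENCODE 44, with overlapping matches counted. It was present in 8 of the 10 members, beside 75.3% of 12399 read genes with an annotated 3′ UTR, which is a similar share. CCND1 held 7 copies, or 2.19 per kilobase, near the median of 1.83 per kilobase over read genes. CDKN1B also held 7 copies in a shorter 3′ UTR, or 5.22 per kilobase, a density above that of 91.8% of read genes. CCNE2 had the densest 3′ UTR with 10 copies, or 7.10 per kilobase, above 97.0% of read genes. CCNE1 and CDK4 held none. Stretches from the 3′ UTRs of CCND1 and CDKN1B are shown because these are the read members with the lowest fold changes. Each is a 30-base window with the most copies in its 3′ UTR, so it was picked for the motif and is not typical of the whole. Both are on the plus strand of GRCh38 (hg38), written 5′ to 3′ from chr11:69652681-69652710 and chr12:12721931-12721960, with ATTTA in capitals.
CCND1: ATTTAtagttaaggctaaaaagtatATTTA
CDKN1B: ttttaATTTAaagcttactctgtccATTTA
A match describes the sequence only and says nothing of whether the motif was used in these cells.

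Among the D-type cyclins, CCND1 (chromosome 11, 69641156 to 69654474) was by far the most abundant. Its implied mean, at the common library size, was 4158 reads per library in OLO and 1945 in OZO. Its fitted log2 fold change, −1.10, had a standard error of 0.125, a 95% interval of −1.42 to −0.78 and an adjusted p of 0.0154. On a linear scale CCND1 fell by 53.2%, with an interval of 1.71-fold to 2.67-fold lower. This change was larger in size than that of 98.7% of the 1283 genes within 0.5 log2 CPM of the level of CCND1. The libraries varied more for CCND1 than for most such genes, as its standard error exceeded that of 85.7% of them, whose median was 0.065.

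CCND3 (chromosome 6, 41934934 to 42050357), the second D-type cyclin with a measurable level, had 585 reads in OLO and 501 in OZO. Its log2 fold change was −0.22 (standard error 0.073, 95% interval −0.41 to −0.04) with an adjusted p of 0.175, and it was not called. Its adjusted p was 0.0939 with adjustment over read genes alone and 0.186 when centred on the median of read genes. Centring on the all-gene median, which genes without a read raise, brought it past the threshold, with an adjusted p of 0.0324. A CCND3 messenger RNA more than 1.33-fold lower in OZO lies outside this interval. The intervals of CCND1 and CCND3 did not overlap, but the difference between both fold changes was not tested, since the genes come from the same libraries.

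CCND2 (chromosome 12, 4269771 to 4305353) was scarcely expressed. The mean level of such a gene fixes the product of a whole odd number for each library, which was 441 for CCND2 and splits into 9 in OLO and 49 in OZO. By the product alone, this corresponds to a total of 2 or 4 reads over the 3 OLO libraries and of 6 or 24 over the 3 OZO libraries. The standard error was not used to narrow these totals. The log2 fold change of 1.15, whose standard error was 1.04, had an adjusted p of 0.474, so that no difference in CCND2 was detectable at this depth.

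Levels of different genes were compared after division by the length of the canonical transcript, as CPM per kilobase. On this scale CCND1 stood at 53.3 in OLO and 24.9 in OZO, and CCND3 at 15.7 and 13.4. CCND1 was 3.40 times as abundant as CCND3 in OLO and 1.86 times in OZO. The share of CCND1 in the sum of all 3 D-type cyclins was 77.2% in OLO and 65.0% in OZO. The summed level was 69.0 CPM per kilobase in OLO and 38.4 in OZO, a ratio of 1.80. CCND1 therefore remained the main D-type cyclin messenger RNA in both groups. These shares are descriptions without an error, since a length-scaled level has no spread in the table.

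**Figure D2:**
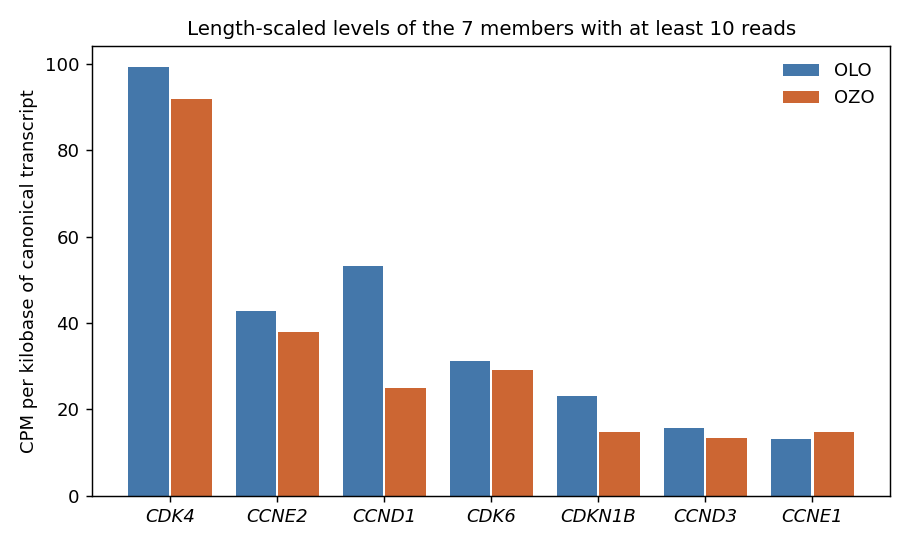
CPM per kilobase of canonical transcript (y axis) for the 7 read members, in OLO (blue) and OZO (orange), ordered by their mean level. Bars carry no error because the spread of a level is not in the table, and CCND1 shows the widest gap, from 53.3 in OLO to 24.9 in OZO.

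The E-type cyclins, the partners of CDK2 at the end of G1, did not pass the test. CCNE1 (chromosome 19, 29811991 to 29824312) had 470 reads in OLO and 528 in OZO. Its log2 fold change was 0.17 (standard error 0.142, 95% interval −0.20 to 0.53) with an adjusted p of 0.438. CCNE1 was the only read member with a positive value. Centring on the all-gene median turned its log2 fold change to −0.02, whereas centring on the median of read genes left it at 0.17. CCNE2 (chromosome 8, 94879770 to 94896678) had 2103 reads in OLO and 1861 in OZO, with a log2 fold change of −0.18 (95% interval −0.50 to 0.14) and an adjusted p of 0.349. The intervals leave room for a CCNE1 level up to 1.45-fold higher and a CCNE2 level up to 1.41-fold lower in OZO. Per kilobase, CCNE2 was the more abundant E-type cyclin, with 42.7 CPM in OLO and 37.8 in OZO against 13.1 and 14.7 for CCNE1. Its share of the E-type sum was 76.6% in OLO and 72.0% in OZO. The E-type sum was 55.8 CPM per kilobase in OLO and 52.5 in OZO, below the D-type sum in OLO and above it in OZO. This order held only on the length-scaled level. Without division by length, the E-type sum was below the D-type sum in both groups. The values were 139.8 against 257.7 CPM in OLO and 129.8 against 133.0 in OZO. None of these sums carries an error.

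The kinases that D-type cyclins activate, CDK4 and CDK6, did not pass the test. CDK4 (chromosome 12, 57747727 to 57756013) had 3406 reads in OLO and 3158 in OZO. The log2 fold change of CDK4 was −0.11 (standard error 0.081, 95% interval −0.32 to 0.10), with an adjusted p of 0.377. CDK6 (chromosome 7, 92604921 to 92836573) had 6686 reads in OLO and 6242 in OZO. The log2 fold change of CDK6 was −0.10 (standard error 0.085, 95% interval −0.32 to 0.12), with an adjusted p of 0.447. The standard errors of CDK4 and CDK6 exceeded those of 68.8% and 69.9% of the genes within 0.5 log2 CPM of their levels. For either kinase the interval excludes a level more than 1.25-fold lower in OZO, which is less than the lower bound of 1.71-fold for CCND1. The difference between the fold change of either kinase and that of CCND1 was not tested. CDK6 had 1.97 times the reads of CDK4 but is transcribed into a far longer messenger RNA, of 11.7 kb against 1.87 kb. Per kilobase the order turned, and CDK4 was 3.18 times as abundant as CDK6. CDK4 made up 76.1% of the sum of both kinases in OLO and 76.0% in OZO.

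Among the inhibitors, CDKN1B (chromosome 12, 12685498 to 12722369), which encodes p27, had 1026 reads in OLO and 659 in OZO. Its log2 fold change was −0.64 (standard error 0.214, 95% interval −1.19 to −0.09) with an adjusted p of 0.185. The value was larger in size than that of 92.0% of the 2136 genes of like level. The libraries also differed more, as its standard error exceeded that of 92.7% of these genes, whose median was 0.089. CDKN1B therefore was not called, although its interval runs from 1.06-fold to 2.28-fold lower in OZO. Adjusted over read genes alone, its adjusted p was 0.0995.

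CDKN1C (chromosome 11, 2883213 to 2885775), which encodes p57, and CDKN2B (chromosome 9, 22002903 to 22009305), which encodes p15, were at the edge of detection. For CDKN1C the product was 2205, which splits into 9 in OLO and 245 in OZO. By the product alone, this is a total of 2 or 4 reads over the OLO libraries and of 8 to 122 over the OZO libraries. The product allows 4 totals for OZO, and the standard error was not used to narrow them. Its log2 fold change of 1.93 (95% interval 0.48 to 3.38) had an adjusted p of 0.137. A gene with no read carries 0.33 on the same scale, and CDKN1C had a mean of 1.30 reads per library, so this fitted value does not give the size of a change. CDKN2B had a product of 9, that is 1 read in all OLO libraries together and 1 in all OZO libraries together. Its log2 fold change of 0.33 equals that of genes without a read, and the data hold no information on its direction.

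CDKN1A, which encodes p21 and binds the same complexes as p27, was the CIP/KIP inhibitor that passed the test. CDKN1A had 988 reads in OLO and 2055 in OZO, and rose by 1.06 in log2 units (standard error 0.049, 95% interval 0.93 to 1.18) and an adjusted p of 0.00296. Per kilobase, CDKN1A was 1.10 times as abundant as CDKN1B in OLO and 3.55 times in OZO. The share of CDKN1B in their sum was accordingly 47.7% in OLO and 22.0% in OZO. The 2 intervals lay on opposite sides of 0, and the difference itself was not tested.

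Ordered by level per kilobase in OLO, the 7 read members were CDK4 at 99.2 CPM, CCND1 at 53.3, CCNE2 at 42.7, CDK6 at 31.1, CDKN1B at 23.1, CCND3 at 15.7 and CCNE1 at 13.1. In OZO the order was CDK4 at 92.0, CCNE2 at 37.8, CDK6 at 29.1, CCND1 at 24.9, CDKN1B at 14.8, CCNE1 at 14.7 and CCND3 at 13.4. CCND1 thus stood in the second place in OLO and in the fourth in OZO. CCNE1 and CCND3, the lowest pair, also changed places, but neither gene passed the test. The spread of a level between libraries is not in the table, so neighbours of similar level cannot be ranked. The length of the transcript used in these cells was not measured either, which touches most the genes with long 3′ UTRs, such as CDK6 with 10.2 kb.

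**Figure D3:**
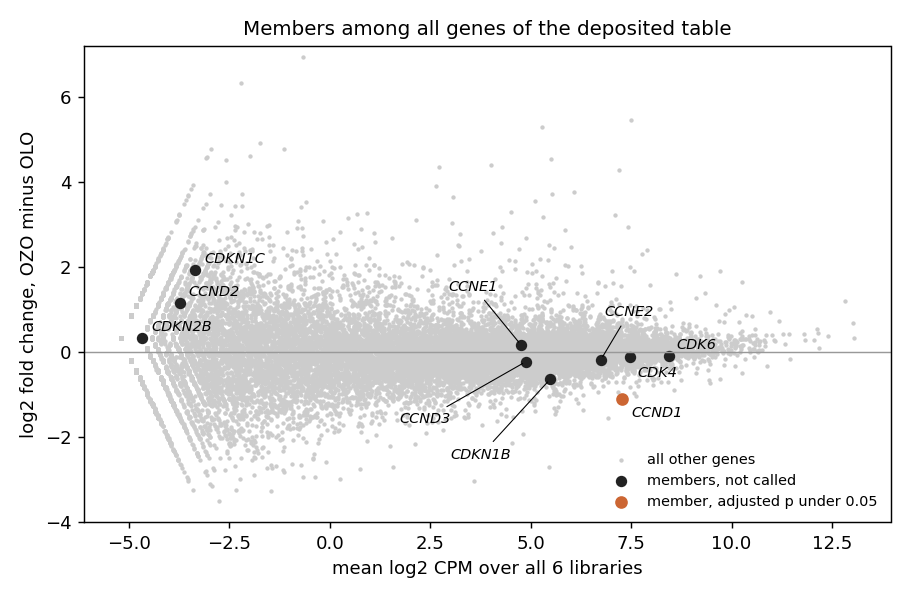
Log2 fold change of OZO over OLO (y axis) against the mean log2 CPM over all 6 libraries (x axis) for all genes (grey) and the 10 members (dark, and orange for CCND1). CCND1 lies at the lower edge of genes of its level, and CCND2, CDKN1C and CDKN2B lie in the fan of genes with only a few reads.

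Several members share exon bases with another gene in GENCODE 44, and neither the strand setting of the counting nor its treatment of such bases is given in the sources used here. On the opposite strand, CCND1 shares 497 of its 4238 exon bases, at its 3′ end, with LTO1. LTO1 had a mean of 420 reads and a log2 fold change of 0.02 with an adjusted p of 0.941, and was not called. CCNE2 shares 1522 of its 2674 exon bases with INTS8 (1695 reads, log2 fold change 0.13, adjusted p of 0.249). CDK4 shares 1078 of its 1865 with TSPAN31 (389 reads, log2 fold change −0.08, adjusted p of 0.521). If reads in shared bases were left out, the levels per kilobase of CCND1, CCNE2 and CDK4 are too low. This would also touch the ratios, shares and order built on them. CCND2 shares 999 of its 6493 exon bases with the protein-coding ENSG00000285901 on the same strand. ENSG00000285901 has no values in the deposited table, so whether it was counted is not known. If it was, and reads in shared bases were left out, the few reads of CCND2 are a lower limit. Antisense CCND2-AS1, which shares 162 bases with CCND2, had no read, and CDK6-AS1, which shares 86 with CDK6, had a mean of 1.72. CDKN2B lies within CDKN2B-AS1 on the opposite strand, which had a mean of 1.46 reads and shares no exon bases with it. NDUFAF6 at CCNE2, MARCHF9 and MIR6759 at CDK4, RNU6-10P at CDK6, RNU6-761P at CCND3 and GPR19 at CDKN1B overlap the member's locus without shared exon bases. How reads in the shared exons were assigned was not tested.

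To place the members in their pathway, 33 other genes of the G1/S transition were examined in 3 lists. All were read genes, and 7 were called, 4 higher and 3 lower in OZO, or 21.2% beside 13.6% of all read genes. Their median log2 fold change was 0.03, beside −0.18 for the read members. CDK2, the kinase that E-type cyclins activate, had a log2 fold change of −0.01 (95% interval −0.14 to 0.12) and an adjusted p of 0.933.

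Of 13 pocket protein and E2F/DP genes, the substrates and effectors of the G1 kinases, 2 rose and 2 fell, with a median of −0.06. E2F2, an activating E2F factor, went from 209 to 93.2 reads and fell by 1.16 in log2 units (standard error 0.168, adjusted p of 0.0252). TFDP1, the common dimerization partner of E2F factors, fell by 0.32 (standard error 0.050, adjusted p of 0.0307). RB1, the retinoblastoma protein gene, rose by 0.24 (standard error 0.041, adjusted p of 0.0382). E2F6, a repressive E2F factor, rose by 0.39 (standard error 0.066, adjusted p of 0.0352).

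Of 10 other kinases, activators and inhibitors, CDKN1A rose and CDKN2C fell, and the list had a median of 0.03. CDKN2C, which encodes the INK4 inhibitor p18, went from 764 to 363 reads and fell by 1.07 in log2 units (standard error 0.163, adjusted p of 0.0286). It was the INK4 gene that passed, whereas CDKN2A, with 33.3 reads in OLO and 35.1 in OZO, had 0.08 and an adjusted p of 0.825. Of 10 genes for the turnover of cyclins and CDK inhibitors, 1 was called, and the median was 0.18. This was SKP1, a core subunit of SCF ubiquitin ligases, which rose by 0.29 (standard error 0.0245, adjusted p of 0.00855), or 1.22-fold. The standard error of SKP1 exceeded that of only 2.37% of the 548 genes within 0.5 log2 CPM of its level, whose median was 0.062.

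**Figure D4:**
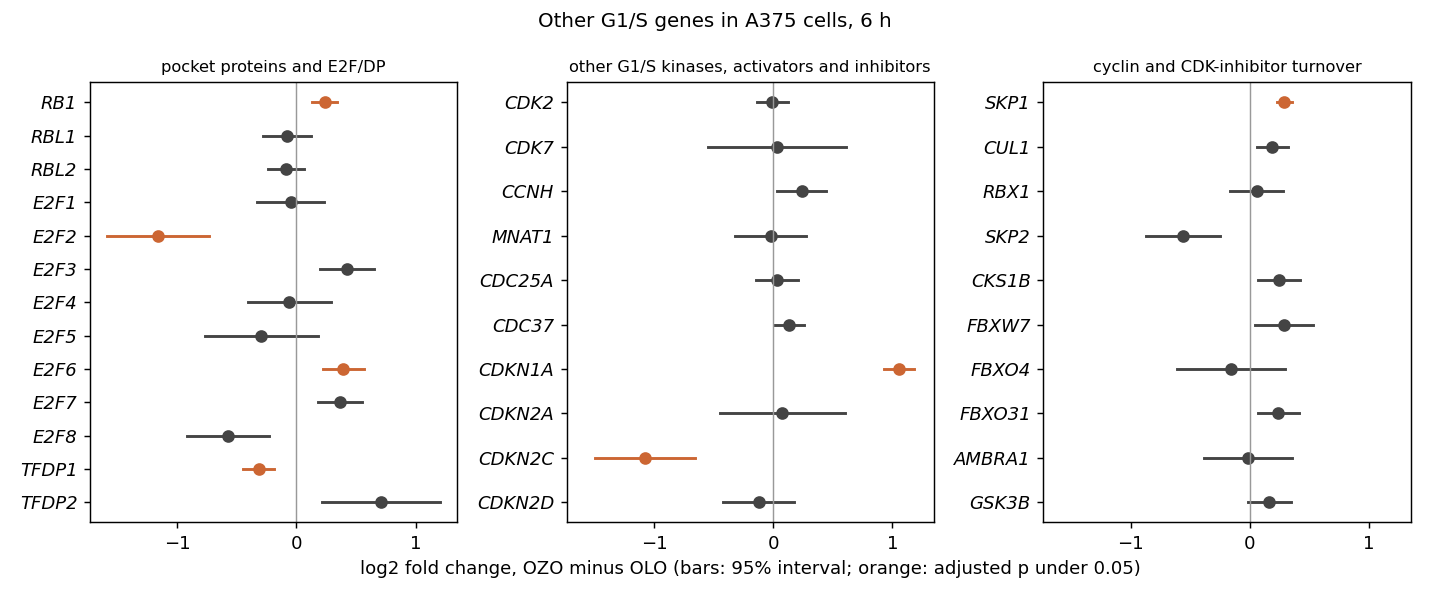
Log2 fold change of OZO over OLO (x axis) with 95% intervals for 33 other G1/S genes in 3 lists (panels), with genes at an adjusted p under 0.05 in orange. Of these, E2F2, TFDP1 and CDKN2C lie to the left of 0, and RB1, E2F6, CDKN1A and SKP1 to the right.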

How the data were processed

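Libraries were prepared with the NEBNext Ultra II Directional kit. Per the study's methods and the submitters' processing notes, the authors aligned reads to hg38 with HISAT2 2.1.0, counted them with featureCounts 2.1.1 and compared 3 OZO with 3 OLO libraries in limma 3.58.1 (voom). Normalization factors, filters and strand settings are not given in the sources used here. The deposited table holds statistics of that comparison, which are the authors' own and were used as such: the deposited log2 values (fold change, mean CPM), the deposited score (moderated t) and the deposited p-value, raw and adjusted. The log-odds column was not used. No test across libraries was run here.

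From these, the standard error was the fold change divided by t, and 95% intervals used degrees of freedom of 5.02 to 5.24, solved from t and p. Reads per group were derived at voom's offset of 0.5 and the same library size for both groups, with the lowest mean taken as no read. For 4582 genes with few reads, the product of odd numbers was within 0.01 of a whole number in 100%, and its split between groups matched the fold change within 0.05 log2 in 100%. Python 3.11.15 and scipy 1.17.1 were used. Transcript lengths and positions are those of GENCODE 44 (GRCh38), matched by Ensembl identifier. Procedures were tested on simulated data.

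Genes were called at an adjusted p under 0.05 over all 28395 genes. Named are all members, CDK2, CDKN1A, CDKN2A, called genes of the lists and genes with a symbol that overlap a member. ENSG00000285901, which has no symbol, is named as well. Members and lists were chosen with earlier results of these data known. Alternatives were other thresholds, centring, a read filter and levels without length.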

Additional observations from a re-analysis of the deposited data

How the results depend on the processing

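The count of 1 called member became 0 at an adjusted p under 0.01, where CCND1 was lost (4 of the 10 held an unadjusted limma p under 0.05). Centring on the all-gene median made it 2, adding CCND3, and reversed the log2 fold change of CCNE1 to −0.017; it also raised the calls over all genes from 1999 to 3115 and those lower from 868 to 2481. It was 1 at a threshold of 0.1, with a 2-fold minimum, over read genes and centred on read genes. The 7 other G1/S calls became 2 at 0.01 (CDKN1A and SKP1), 11 at 0.1 and 11 with adjustment over read genes, where fewer genes were tested. Of all read genes, 1.83%, 21.2% and 20.6% were called at these settings, beside 13.6% as reported. Both times E2F3, E2F7, E2F8 and SKP2 joined, named here after their values were seen. Without division by length, the share of CCND1 among D-type cyclins was 87.6% in OLO and 79.5% in OZO. No paired analysis was possible because the table gives only statistics of the groups. For that reason leaving out each replicate, the replicate block, edgeR and DESeq2 were not run, and whether 1 library decides a result was not tested. Depth limits CCND2, CDKN1C and CDKN2B, for which no fold can be given.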
